A study of Rattus norvegicus with 113 samples.

Results

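The genes described here mark the reactive state of astrocytes after injury of the brain. The 9 genes were Gfap, Vim, Lcn2, Serpina3n, Aspg, Steap4, Cd109, Ptx3 and Emp1, chosen by name from the genes that astrocytes raise after injury. Each was read from array probes whose RefSeq transcript identifier belonged to that rat gene symbol, and 8 of the 9 had such a probe among the 16628 named genes on the arrays. Cd109 had none and has no value below. Each of 113 tissue samples was hybridized to its own Agilent array with a single dye, in 29 groups of adult male Sprague-Dawley rats, of which 27 groups held 4 arrays. TBI rats received a parasagittal fluid percussion injury, in which a pulse of fluid strikes the exposed dura over 1 side of the brain. Sham rats were anesthetized and operated on but not injured, and naive rats were neither anesthetized nor handled. The whole hippocampus and a piece of cortex near the site of injury were taken at 24 hr, 2 weeks, 3 months, 6 months and 12 months. The labels call the injury moderate and the methods give a pressure that they call severe. The hippocampus at 24 hr had 2 sham arrays and 3 TBI arrays, with no naive array used here. The labels describe the arrays of a group as biological replicates, so the spread within a group is a spread between rats. The model used, limma, draws part or all of a gene's error from the other probes of the fit. The errors below thus do not measure the spread of that gene alone.

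Astrocytes respond to injury by enlarging and by turning on a set of genes that depends on the insult. Gfap and Vim encode intermediate filament proteins of the astrocyte cytoskeleton, and Vim is also expressed by endothelial cells, microglia and other non-neuronal cells. Lcn2 encodes lipocalin 2, a secreted protein that binds bacterial iron carriers and is also made by neutrophils. Serpina3n encodes a secreted serine protease inhibitor and Aspg an asparaginase. Steap4 encodes a membrane metalloreductase. These genes are part of the set shared by several kinds of injury and are called pan-reactive. Ptx3, which encodes a secreted pattern recognition protein of the pentraxin family, Emp1, which encodes a small membrane protein, and Cd109, which encodes a surface glycoprotein, belong to the set first described after ischaemia. Signalling through the receptor subunit gp130, the kinase Jak2 and the transcription factor Stat3 is known to drive much of this response, and NF-kB and C/EBP factors act on several of its genes.

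Since several members were raised in the same comparisons, their promoters were searched on both strands for a STAT motif (TTCNNNGAA), an AP-1 motif (TGANTCA), a C/EBP motif (TTGCNNAA) and the NF-kB motif. The window searched was 250 bases before and 50 bases after the start of each gene in RefSeq (build GRCr8). The STAT motif lay in 3 of the 8 promoters against 8.87% of 33469 rat promoters of the same length, the AP-1 motif in 2 against 7.33%, the C/EBP motif in 3 against 10.6% and the NF-kB motif in 4 against 7.51%. The promoter of Gfap held none of the 4 motifs in this window. The 3 promoters with a STAT motif are shown because Stat3 is the factor of the pathway named above, and that of Lcn2 because it had the largest difference of TBI from sham. Each is the 250 bases before the start on the strand of the gene, with capitals at the motif matches.
Serpina3n, chr6:129088142-129088391, plus strand: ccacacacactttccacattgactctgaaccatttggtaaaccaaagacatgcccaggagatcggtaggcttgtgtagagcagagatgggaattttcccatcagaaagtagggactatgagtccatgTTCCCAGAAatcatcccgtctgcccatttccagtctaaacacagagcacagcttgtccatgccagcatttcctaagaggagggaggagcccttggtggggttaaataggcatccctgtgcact
Steap4, chr4:27054770-27055019, minus strand: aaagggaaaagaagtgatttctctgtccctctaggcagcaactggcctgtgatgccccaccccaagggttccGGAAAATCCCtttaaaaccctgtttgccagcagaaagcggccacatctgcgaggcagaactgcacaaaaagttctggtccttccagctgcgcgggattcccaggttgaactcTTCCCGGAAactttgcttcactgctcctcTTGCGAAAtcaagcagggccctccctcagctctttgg
Emp1, chr4:169943980-169944229, plus strand: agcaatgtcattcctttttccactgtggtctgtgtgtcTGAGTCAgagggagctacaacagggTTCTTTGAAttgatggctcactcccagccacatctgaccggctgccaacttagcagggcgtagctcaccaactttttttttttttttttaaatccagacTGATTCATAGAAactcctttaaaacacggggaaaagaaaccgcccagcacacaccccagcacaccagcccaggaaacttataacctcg
Lcn2, chr3:36081781-36082030, minus strand: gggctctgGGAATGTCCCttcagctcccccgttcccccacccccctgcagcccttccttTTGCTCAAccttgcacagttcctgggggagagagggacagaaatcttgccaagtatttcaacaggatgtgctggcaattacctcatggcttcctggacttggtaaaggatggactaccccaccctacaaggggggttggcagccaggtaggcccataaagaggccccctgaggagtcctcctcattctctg
The Serpina3n match was a STAT motif at -123 to -115 from the start. Steap4 held a STAT motif at -66 to -58, a C/EBP motif at -37 to -30 and an NF-kB motif at -178 to -169. Emp1 held STAT motifs at -187 to -179 and -85 to -77 and AP-1 motifs at -212 to -206 and -88 to -82, the last of which overlaps a STAT match. Lcn2 held a C/EBP motif at -191 to -184 and an NF-kB motif at -242 to -233. A match describes the letters only, and no binding was measured.

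Levels are log2 of the processed signal of a probe minus the median of its array, so a level of 0 is the median probe of that array and a difference of 1 is a 2-fold difference. A probe was called well above background by the scanner software, and a level without that call has only an upper bound, marked below as not well above background. Where no array of the lower group had that call, the fold is given as at least N-fold, computed against the lowest signal that was well above background on those arrays. Levels are not compared between genes, nor between the array design of the hippocampus at 24 hr and 3 months (30367 probes, 17 arrays) and that of all other groups (45598 probes, 96 arrays). Between 41.3% and 93% of probes were well above background on an array (median 56%). The array of cortex sham 2 weeks replicate 3 stood apart, with 93% of probes above background and a log2 array median of 10.82 against 5.30 to 5.46 in the other shams of that group. Cortex naive 2 weeks replicate 4 had a log2 median of 7.5 against 5.51 to 5.9. Hippocampus naive 6 months replicate 2 had a log2 median of 6.61 against 5.17 to 5.95, with 72.5% of probes above background. Results that hold the first of these arrays are given with and without it. The summed level of hippocampus marker genes was 337 to 728 in 36 hippocampal arrays and 72.9 to 290 in 59 cortical arrays of the larger design, with no overlap, whereas the sum of cortex markers overlapped (90.2 to 225 and 103 to 393). All 14 resting astrocyte markers were well above background on every array of the larger design, as were all 13 measured on the smaller design. Bulk tissue cannot separate a change in the number of astrocytes from a change in RNA per cell, and Lcn2, Vim and Ptx3 are made by other cells too. Serpina3n has close relatives in the rat genome, and cross-hybridization of its probe was not tested.

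TBI and sham arrays shared a slide at 3 and 12 months in both tissues and at 2 weeks in the hippocampus. In the other comparisons of TBI with sham, slide and group cannot be told apart, and in the hippocampus at 24 hr the scan day differed as well. Sham and naive arrays shared a slide at 6 months in both tissues and at 24 hr and 2 weeks in the cortex. TBI and naive arrays never did.

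In the hippocampus 24 hr after injury, 7 of the 8 members were higher in TBI than in sham (limma, adjusted p under 0.05 over all probes), against 5.57% of the 16738 probes tested. The median of the member differences was 2.86 log2 units and that of all probes was -0.02. All 8 members separated the 2 sham arrays from the 3 TBI arrays, and all 8 passed the fold change of 1.4 and unadjusted p under 0.05 that the study's methods set, against 11.1% of probes.

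Lcn2 had the largest difference between the groups. Its level was -0.86 and 3.35 in the sham arrays and 9.04, 8.95 and 6.90 in the TBI arrays. It rose by 7.06 log2 units (SE 1.26, adjusted p = 0.0205), which is 133-fold. The sham arrays lay far apart, and without the lower of them the difference was 4.95 (adjusted p = 0.0552). Serpina3n was 0.35 and 2.62 in sham and 7.06, 9.53 and 5.28 after TBI. It rose by 5.81 (SE 1.26, adjusted p = 0.0332). Again the second sham array was the higher of the pair, and the third TBI array was the lowest of its group.

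The filament genes Gfap and Vim rose as well. Gfap was 5.70 and 6.46 in sham and 7.58, 8.32 and 7.95 after TBI, a rise of 1.87 (SE 0.30, adjusted p = 0.0152) or 3.66-fold. Vim was 1.24 and 2.42 in sham and 5.29, 4.97 and 4.47 after TBI, a rise of 3.08 (SE 0.40, adjusted p = 0.00803) or 8.45-fold. Every TBI array lay more than 1 log2 unit above every sham array for both genes. Aspg was -0.52 and 1.37 in sham and 4.13, 4.29 and 3.99 after TBI. It rose by 3.72 (SE 0.51, adjusted p = 0.00957), 13.1-fold. The 3 TBI arrays of Aspg lay closer together than the 2 sham arrays.

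Emp1, the small membrane protein, had the lowest adjusted p of the members. Its level was 1.15 and 0.63 in sham and 3.20, 3.82 and 3.58 after TBI, a rise of 2.64 (SE 0.24, adjusted p = 0.00434). Ptx3 was 1.90 and 2.23 in sham and 3.15, 5.06 and 4.38 after TBI, a rise of 2.13 (SE 0.53, adjusted p = 0.0475). That call was lost under the other scalings of the arrays and with the replicate number as a block, with adjusted p of 0.0656 to 0.0896. The replicate block also ended the calls of Lcn2 (adjusted p = 0.0565) and Vim (0.05001), whereas Steap4 passed under it (0.0389). Steap4 was 0.66 and 0.83 in sham and 3.29, 2.94 and 1.26 after TBI. Its difference of 1.75 (SE 0.58, adjusted p = 0.0985) missed the threshold, with the third TBI array close to the shams. Without sham replicate 1, Gfap, Lcn2, Serpina3n and Ptx3 missed the threshold (adjusted p of 0.0552 to 0.183) and 3 members, Vim, Aspg and Emp1, remained called. Serpina3n also missed it without sham replicate 2 or TBI replicate 1, and Lcn2 without TBI replicate 1 (0.0550 to 0.0766). With no filter on dim probes none of the 7 passed (0.0682 to 0.199).

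**Figure D1:**
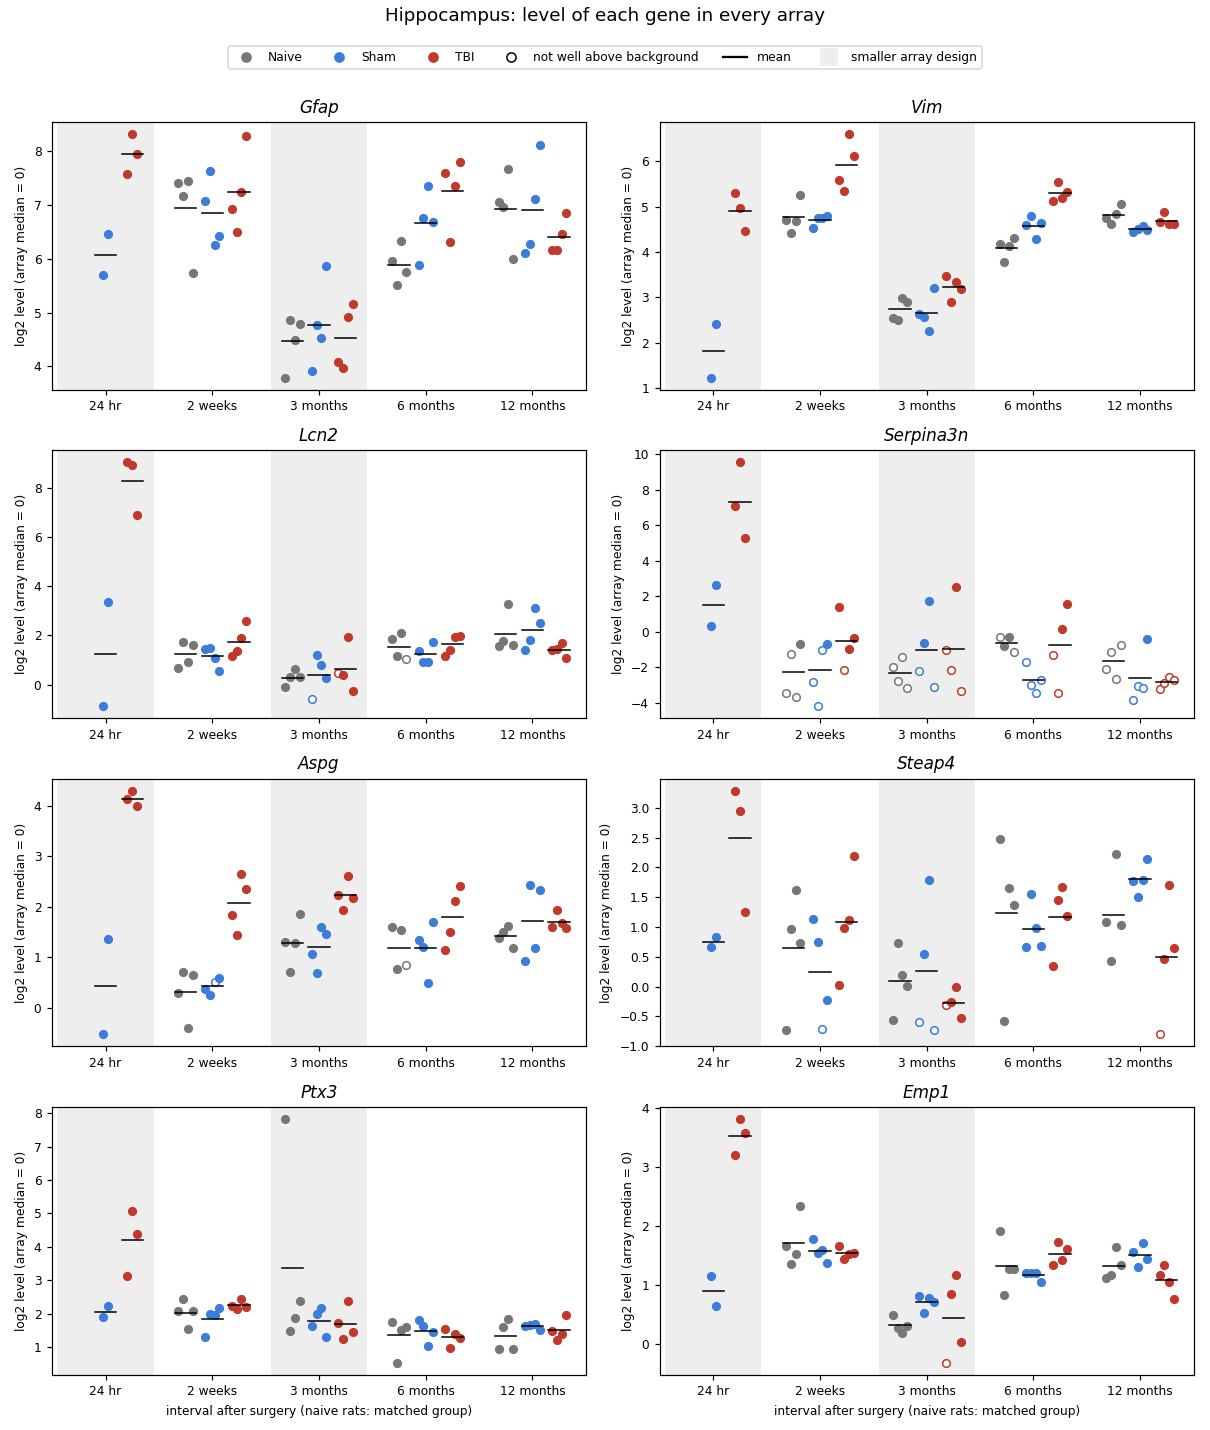
Level of the 8 members in each hippocampal array, as log2 processed signal minus the array median (vertical axis), by post-injury interval (horizontal axis) and by group (naive, sham, TBI), with a short line at each group mean. Open symbols are arrays not well above background, and the grey bands mark the intervals measured on the smaller array design, whose levels are not on the scale of the others. All TBI arrays at 24 hr lie above both sham arrays for each member.

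Other genes of the reactive response moved in the same samples. Of the other pan-reactive genes, 4 of the 5 tested were higher (median 2.77). They were Timp1, a metalloproteinase inhibitor (5.04), Hspb1, a small heat shock protein (4.79), Cd44, a hyaluronan receptor (2.77), and Cp, the ferroxidase ceruloplasmin (2.18). Of the other genes induced by ischaemia, all 3 tested were higher, namely Cd14 (3.48), S100a10 (2.41) and Tm4sf1 (0.61). Of 8 genes induced by lipopolysaccharide, 4 were higher and 2 were lower. The complement inhibitor Serping1 (2.68), the GTPase Gbp2 (2.65), and the complement factor C3 (2.14) were among those that rose, and Igtp (-1.18) fell. Among 9 genes of gp130 and Stat3 signalling, 5 rose (median 0.74). The largest were Bcl3 (2.86), Cebpd (1.74), Stat3 itself (0.80) and the gp130 gene Il6st (0.78). All values in this paragraph are log2 differences from the same fit.

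Markers of resting astrocytes did not rise with the members. Of 13 tested, 2 fell, the gap junction genes Gjb6 (-1.25) and Gja1 (-0.63), and the median was -0.44. Markers of other cells moved as well. Of 13 microglia and macrophage markers, 2 were higher (Ptprc 1.54, Tyrobp 1.21, median 0.69), and their summed level was 568 to 628 in sham and 766 to 1197 after TBI. Of the neutrophil markers, S100a9 was higher by 3.99, the summed level was 3.61 to 3.63 in sham and 12.9 to 102 after TBI, and Elane, Camp, Ngp, Mmp8, Cxcr2 and Ltf were well above background on none of these arrays. Of 8 fibroblast and meninges markers, Mgp rose by 1.71. Of 9 neuron markers, the synaptic vesicle gene Syt1 fell by 0.68. None of 8 oligodendrocyte, 6 endothelial, 2 choroid plexus or 4 blood markers passed the threshold. The part of these other cells in the member values was not tested.

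In the cortex at 24 hr the sham rats differed from the naive rats, and the TBI rats were compared with both. Between sham and naive, which shared a slide, 5 of the 7 members tested were higher in sham (limma), against 0.953% of probes. The median of all probes in that comparison was -0.20. Between TBI and naive 7 of 8 members were higher, against 6.38% of probes. Both counts include Serpina3n, which was well above background on no naive array and was tested only through its higher group. Aspg, with that call on 3 naive arrays, was also tested only through the higher group in both comparisons. Ptx3, with it on 1 naive array, entered the count against naive only through TBI. The parts of these genes in the counts are not read as support for a rise. Between TBI and sham no member passed the threshold, against 0.213% of probes, although 6 members had an unadjusted p under 0.05 and also a fold of at least 1.4, against 9.05% of probes. Ptx3, well above background on 2 sham arrays, entered that test only through its TBI arrays. The median member difference between TBI and sham was 1.45 and that of all probes 0.12.

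Lcn2 was 1.4, 0.90, 0.60 and 1.45 in the naive arrays, 4.49, 7.34, 2.54 and 6.69 in the sham arrays and 8.70, 8.23, 7.52 and 9.41 in the TBI arrays. The 3 groups did not overlap. It rose from naive to sham by 4.18 (SE 0.82, adjusted p = 0.00965), 18.2-fold, and from naive to TBI by 7.38 (SE 0.84, adjusted p = 0.00609), 167-fold. The TBI rats exceeded the shams by 3.20 (SE 0.84, adjusted p = 0.0830).

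Serpina3n was not well above background on any naive array, where its values were -2.77, -3.55, -2.26 and -3.72. It was 1.81, 5.11, 1.32 and 4.80 in the sham arrays and 6.65, 7.42, 7.25 and 7.01 in the TBI arrays. The groups did not overlap, and the 4 TBI arrays lay close together whereas sham replicates 2 and 4 stood well above the other shams. The rise over naive was at least 28.5-fold in sham and at least 404-fold after TBI. Serpina3n entered these limma tests only through the group where it was higher. Its adjusted p (0.00610 in sham and 0.000306 after TBI) rest on background values in naive arrays and are not read as a test of the rise. TBI exceeded sham by 3.82 (SE 0.75, adjusted p = 0.0568), a value near the threshold.

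Gfap was 6.83, 5.57, 4.69 and 4.34 in naive, 6.34, 7.29, 7.44 and 8.15 in sham and 8.71, 8.33, 7.45 and 8.50 in TBI arrays. It rose in sham by 1.95 (SE 0.51, adjusted p = 0.0226) and in TBI by 2.89 (SE 0.52, adjusted p = 0.00833) over naive. The sham and TBI arrays overlapped, and their difference was 0.94 with a 95% interval of -0.19 to 2.07. Vim was 5.74, 4.71, 5.07 and 5.28 in naive, 5.81, 7.0, 5.74 and 6.69 in sham and 7.65, 7.09, 6.76 and 7.64 in TBI arrays. It rose by 1.11 in sham (SE 0.32, adjusted p = 0.0312) and by 2.08 in TBI (SE 0.32, adjusted p = 0.00748). The lowest TBI array lay just below the highest sham array.

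Aspg was 0.77, 3.87, 0.94 and 2.68 in sham and 3.55, 2.84, 2.70 and 2.67 in TBI arrays, against 0.18, -2.07 (not well above background), 0.72 and 0.28 in naive arrays. It rose over naive by 2.28 in sham (SE 0.69, adjusted p = 0.0386) and by 3.16 in TBI (adjusted p = 0.0142). Aspg entered both tests only through the higher group, because of the naive array that was not well above background. Sham and TBI overlapped fully, with a difference of 0.88 and a 95% interval of -0.66 to 2.41. Emp1 was 2.19, 2.50, 2.81 and 2.78 in naive, 2.81, 3.80, 2.40 and 3.19 in sham and 4.49, 3.83, 3.38 and 5.04 in TBI arrays. It rose over naive in TBI by 1.62 (SE 0.36, adjusted p = 0.0137), and the sham difference of 0.48 (adjusted p = 0.353) missed the threshold. Ptx3 was above background on 1 naive array and 2 sham arrays and on all TBI arrays, where it was 2.62, -0.26, 1.25 and 3.31. Its difference from naive after TBI was 3.24 (SE 0.85, adjusted p = 0.0255), a call lost without any of naive replicates 2 to 4 or TBI replicates 1 or 4 (adjusted p of 0.0534 to 0.0825). Ptx3 entered this test only through its TBI arrays. The adjusted p thus rests largely on background values in naive arrays and is not read as a test of the rise. Steap4 was 3.70, 1.62, 1.60 and 3.77 in TBI arrays and passed neither against naive (1.02, adjusted p = 0.234) nor against sham (1.76, adjusted p = 0.121).

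Within the sham group, replicates 2 and 4 were the highest arrays for all members but Gfap. The same arrays had the higher summed levels of neutrophil markers, 22.3 and 42.0 against 5.01 and 5.45 in replicates 1 and 3, and of microglia and macrophage markers, 892 and 771 against 485 and 628. Neutrophil marker sums were 3.79 to 7.54 in naive and 11.8 to 162 in TBI arrays, and microglia sums 569 to 692 and 922 to 1263. Their part in the member values was not tested. Without sham replicate 2, 3 members differed between sham and naive, and without replicate 4, 2 did. Leaving out naive replicate 2, 3 or 4 left 3, 2 and 2. Gfap, Vim and Aspg lost their calls between sham and naive at the 75th percentile, with the authors' table, quantile and no filter, with adjusted p of 0.0530 to 0.0731 for Gfap, 0.0582 to 0.0924 for Vim and 0.0768 to 0.106 for Aspg. Aspg also lost it with only these groups in the fit (0.0685) and with the replicate block (0.0765).

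**Figure D2:**
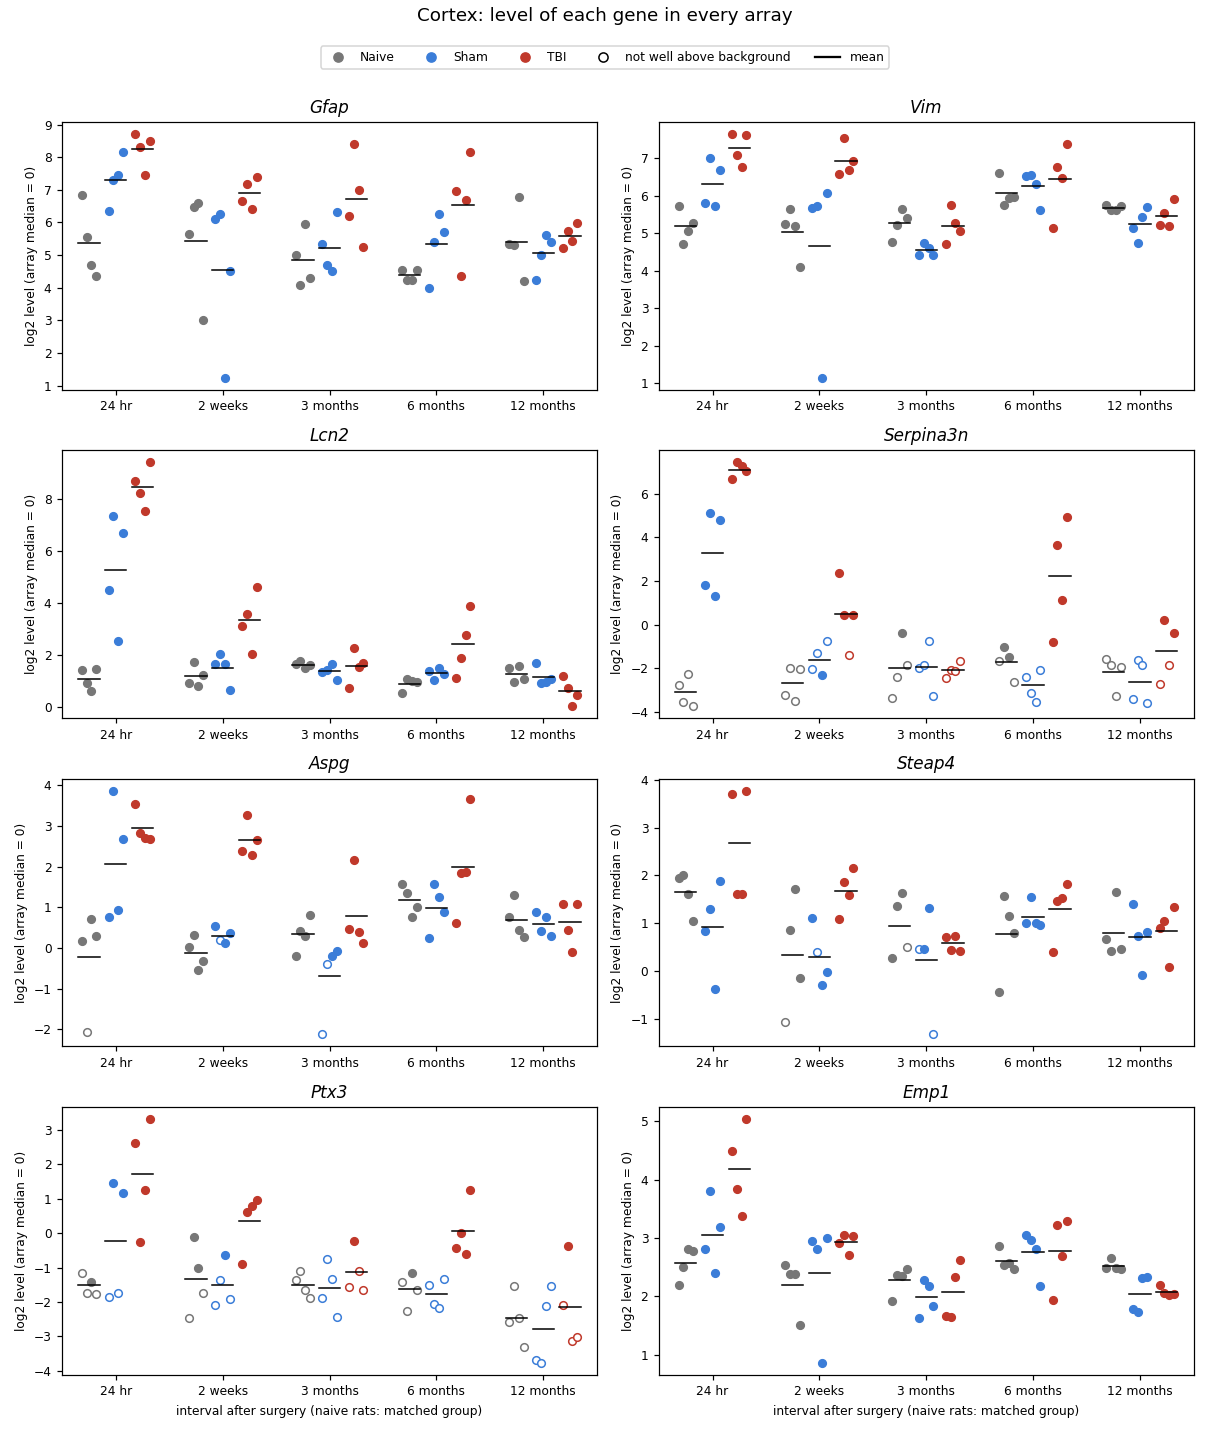
Level of the 8 members in each cortical array, as log2 processed signal minus the array median (vertical axis), by post-injury interval (horizontal axis) and group (naive, sham, TBI), with a short line at each group mean and open symbols for arrays not well above background. At 24 hr the shams of Lcn2 and Serpina3n lie between the naive and the TBI arrays, and at 2 weeks sham replicate 3 is the low array of Gfap, Vim and Emp1.

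Sham cortex at 24 hr had many more probes lower than naive (4355 of the 23816 tested) than higher (227). Of the other gene lists in that comparison, 3 of 4 other pan-reactive genes tested were higher (Timp1 3.18, Hspb1 2.33, Cp 1.64), and Ptgs2, the inducible cyclooxygenase, was the 1 of 6 other ischaemia genes that rose (1.43). Of 14 resting astrocyte markers 5 fell, by small steps (Aldh1l1 -0.84, Atp1b2 -0.67, S100b -0.59, Aldoc -0.51 among them), with a median of -0.39. Of 10 neuron markers 3 fell. Of the microglia and macrophage markers Cd163 rose by 1.22 while Trem2 (-0.56) and Cx3cr1 (-0.44) fell. Between TBI and sham in the cortex at 24 hr none of the genes on these lists passed the threshold, with a median of 1.44 over 7 other pan-reactive genes and of 0.64 over 14 microglia and macrophage markers.

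At 2 weeks in the hippocampus, where TBI and sham shared a slide, 2 of 7 members tested were higher in TBI, Vim and Aspg (limma), against 1.07% of probes. Aspg was tested against sham only through its TBI arrays, since it was well above background on 3 sham arrays. The same 2 passed the thresholds of the methods, against 2.72%. The member median was 0.61 and that of all probes -0.11. Vim was 4.52, 4.76, 4.75 and 4.78 in sham and 5.59, 5.34, 6.60 and 6.12 in TBI arrays, against 4.70, 4.42, 4.67 and 5.26 in naive arrays. It rose by 1.21 over sham (SE 0.25, adjusted p = 0.0386), 2.31-fold, and by 1.15 over naive (adjusted p = 0.0152). Every TBI array lay above every sham and naive array. Aspg was 0.37, 0.26, 0.51 (not well above background) and 0.58 in sham and 1.83, 1.44, 2.64 and 2.36 in TBI arrays, against 0.30, 0.70, -0.40 and 0.65 in naive arrays. It rose by 1.64 over sham (SE 0.28, adjusted p = 0.0251), 3.11-fold, and by 1.76 over naive (adjusted p = 0.00385). Again no TBI array overlapped the other groups. Both calls against sham were lost when only these groups entered the fit (adjusted p = 0.0618 for Vim and 0.0552 for Aspg) and with the replicate number as a block (0.0548 and 0.0608). Vim and Aspg were also the 2 members higher than naive, against 4.18% of probes.

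Gfap, by contrast, overlapped between the groups at 2 weeks in the hippocampus. It was 7.40, 7.17, 7.45 and 5.73 in naive, 7.07, 7.63, 6.26 and 6.42 in sham and 6.93, 6.49, 7.24 and 8.28 in TBI arrays. The difference from sham was 0.39 with a 95% interval of -0.63 to 1.42 (adjusted p = 0.628). Lcn2 (0.60), Steap4 (0.85), Ptx3 (0.41) and Emp1 (-0.02) did not pass either. Serpina3n was well above background on 3 TBI arrays and 1 sham array and was not tested. Microglia and macrophage genes rose in these rats, 10 of them past the threshold, among them Cd68 (2.70), Ptprc (1.46), Trem2 (1.32) and Tyrobp (1.30). Their summed level was 463 to 571 in sham and 639 to 1226 after TBI, with no overlap. C3 (2.32), Serping1 (1.81) and Slc10a6 (1.28) were higher too, whereas none of 6 other pan-reactive genes (median 0.94) and none of 14 resting astrocyte markers passed, nor any of 10 genes of gp130 and Stat3 signalling (median 0.05). The part of microglia in the rise of Vim and Aspg was not tested.

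In the cortex at 2 weeks the sham array that stood apart decided the calls. With all arrays none of 7 members passed between TBI and sham (0.00848% of probes did), while 6 had an unadjusted p under 0.05 and a fold of at least 1.4, against 4.02% of probes. The median of all probes in that comparison was 0.95 with this array and 0.01 without it. Without it Lcn2, Aspg and Ptx3 were higher in TBI, 3 of 7 members against 2.13% of probes, with Aspg and Ptx3 tested only through their TBI arrays. Without naive replicate 4 as well, which enters the estimate of spread, 4 were, as were 956 of 23578 probes.

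Aspg was 0.54, 0.19 (not well above background), 0.12 and 0.37 in sham and 2.40, 3.26, 2.29 and 2.65 in TBI arrays, and 0.02, 0.32, -0.55 and -0.32 in naive arrays. The TBI arrays lay more than 1 log2 unit above all others, with or without the third sham array. Its difference from sham was 2.34 with all arrays (SE 0.40, adjusted p = 0.0957) and 2.28 without it (SE 0.38, adjusted p = 8.70e-06). Lcn2 was 1.66, 2.02, 1.64 and 0.65 in sham and 3.13, 3.57, 2.03 and 4.62 in TBI arrays. The lowest TBI array was barely above the highest sham. The difference was 1.84 (SE 0.56, adjusted p = 0.502) and without that array 1.89 (SE 0.41, adjusted p = 0.00121). Ptx3 was -0.90, 0.63, 0.78 and 0.95 in TBI arrays. Of the sham arrays it was well above background on 1, the array that stood apart. It differed from sham by 1.87 (adjusted p = 0.502). Without that array it passed the threshold (adjusted p = 0.000155), and no fold is given, since no sham array was then well above background. Ptx3 was then tested only through its TBI arrays, so this adjusted p rests on background values. With naive replicate 4 also left out, the adjusted p (limma) was 0.0250 for Ptx3, 0.0441 for Lcn2 and 0.000175 for Aspg. The fit without sham replicate 3 alone drew most of its error from other probes, with an SE of 0.37 for Emp1 and 0.38 for Vim. With naive replicate 4 also out these were 0.14 and 0.22. Adjusted p without sham replicate 3 alone, here and against naive, thus do not measure each gene's spread between rats.

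For the filament genes sham replicate 3 was the low array. Gfap was 6.12, 6.27, 1.25 and 4.50 in sham and 6.66, 7.19, 6.42 and 7.38 in TBI arrays, and Vim was 5.68, 5.74, 1.16 and 6.07 in sham and 6.58, 7.56, 6.70 and 6.94 in TBI arrays. The TBI arrays lay above every sham array for both. The differences were 2.38 and 2.28 with the third sham array and 1.28 (adjusted p = 0.18) and 1.11 (adjusted p = 0.165) without it. With naive replicate 4 also left out Vim passed (1.11, adjusted p = 0.0107). Emp1 differed by 0.52 with it and by 0.01 without it. Serpina3n was 2.35, 0.46, -1.38 (not well above background) and 0.43 in TBI arrays and well above background on 1 sham array, and it was not tested. Against naive, Aspg was the only member higher after TBI with all arrays in the fit (2.78, adjusted p = 0.0232, against 0.12% of probes). That call was lost at the 75th percentile (0.124), with the authors' table (0.596) and with the replicate block (0.168). It was also lost without naive replicate 1, 3 or 4 or any of the TBI arrays (0.0555 to 0.156). Without the third sham array 6 members were higher, against 4.72% of probes, namely Gfap (1.48), Vim (1.89), Lcn2 (2.16), Aspg (2.78), Steap4 (1.33) and Ptx3 (1.70). Steap4 was well above background on 3 naive arrays and Ptx3 on 2, so both were tested only through their TBI arrays. Their part of that count is not read as support for a rise. Without naive replicate 4 as well, 3 were, Vim (1.58), Lcn2 (2.18) and Aspg (2.72), as were 1049 of 24349 probes (limma). Gfap then fell to 0.68 (adjusted p = 0.408), and Steap4 (1.17, adjusted p = 0.2575) and Ptx3 (1.56, adjusted p = 0.120) missed the threshold too. The median of all probes fell from 0.41 to 0.07 between these fits. Microglia and macrophage sums were 136 to 702 in naive, 27.6 to 612 in sham and 1297 to 2013 in TBI arrays, and their part was not tested.

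At 3 months no member passed in either tissue. In the hippocampus 0 of 5 members tested passed (0% of probes), and 2 passed the thresholds of the methods against 0.355% of probes. Aspg was 1.06, 0.68, 1.60 and 1.45 in sham and 2.24, 1.93, 2.61 and 2.17 in TBI arrays, with naive arrays at 1.30, 0.71, 1.29 and 1.85. The TBI arrays lay above all others. The difference from sham was 1.04 (SE 0.25, adjusted p = 0.766), 2.06-fold. Vim was 2.64, 2.56, 2.26 and 3.20 in sham and 3.47, 2.89, 3.34 and 3.20 in TBI arrays, a difference of 0.56 (adjusted p = 0.766). In the cortex 0 of 6 members passed (0% of probes), and 3, Gfap, Vim and Aspg, passed the thresholds of the methods against 1.3%. Aspg, well above background on 2 sham arrays, entered the test only through its TBI arrays. Its part of that count rests in part on background values and is not read as support for a rise. Gfap was 5.33, 4.68, 4.53 and 6.33 in sham and 6.21, 8.42, 7.01 and 5.26 in TBI arrays, a difference of 1.51 (SE 0.58, adjusted p = 1.00). The second TBI array was the high one, for Aspg too, which was 0.46, 2.17, 0.40 and 0.13 after TBI against -2.12 and -0.40 (both not well above background), -0.19 and -0.09 in sham. Aspg did not overlap between these groups, with a difference of 1.49 (adjusted p = 0.997).

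At 6 months no member passed against sham in either tissue. In the hippocampus 0 of 7 members passed against sham (0.0134% of probes), and 2, Vim and Aspg, passed the thresholds of the methods against 1.88%. Vim was 4.60, 4.79, 4.29 and 4.63 in sham and 5.13, 5.55, 5.19 and 5.32 in TBI arrays, with naive arrays at 4.17, 3.77, 4.13 and 4.32. The TBI arrays lay above all others. The difference from sham was 0.72 (SE 0.20, adjusted p = 0.646). Against naive 2 members rose, against 3.74% of probes: Vim by 1.20 (SE 0.20, adjusted p = 0.00157) and Gfap by 1.38 (SE 0.30, adjusted p = 0.0127). Gfap was 5.96, 5.52, 6.32 and 5.75 in naive, 5.88, 6.77, 7.36 and 6.68 in sham and 7.59, 6.31, 7.35 and 7.81 in TBI arrays, so that the shams lay between and overlapped both. The Gfap call was lost without naive replicate 2, the array with the high median (adjusted p = 0.0580). It was also lost without TBI replicate 1 (0.0794) and with no filter (0.217), and that of Vim with no filter (0.0636). Sham hippocampus of this interval also differed from naive in marker genes. Higher in sham were 3 of 10 neuron markers (median 0.54), 2 of 6 cortex markers (median 0.64) and 1 of 8 oligodendrocyte markers, against 3.35% of probes. None of 12 microglia and macrophage markers passed, but all were lower in sham (median -0.95, against 0.10 over all probes). The part of tissue composition in the member values was not tested.

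In the cortex at 6 months 0 of 8 members passed (0.0805% of probes), and 3, Lcn2, Serpina3n and Ptx3, passed the thresholds of the methods against 3.34%. Serpina3n and Ptx3 entered the test only through their TBI arrays. Their part of that count rests on background values in sham and is not read as support for a rise. Serpina3n was not well above background on any sham array (-2.41, -3.12, -3.52 and -2.08) and was -0.78, 3.63, 1.14 and 4.92 in TBI arrays. The TBI arrays spanned more than 5 log2 units and did not overlap the shams or the naive arrays (-1.67, -1.03, -1.48 and -2.63). The difference was at least 9.85-fold (adjusted p = 0.115). Without TBI replicate 1 Serpina3n passed the threshold (adjusted p = 0.0168), again set against background values. Ptx3 was likewise not above background in sham and was -0.44, 0.00, -0.62 and 1.26 in TBI arrays, at least 2.18-fold higher (adjusted p = 0.135). Lcn2 was 1.36, 1.04, 1.50 and 1.24 in sham and 1.1, 1.88, 2.77 and 3.88 in TBI arrays, a difference of 1.12 (SE 0.44, adjusted p = 0.437). TBI replicate 4 was the highest array for each of these 3 genes, and for Gfap, where TBI arrays were 6.96, 4.37, 6.69 and 8.16. The summed level of choroid plexus markers was 121 to 1211 in these TBI arrays against 5.77 to 69.8 in sham and 6.36 to 28.7 in naive arrays, and Folr1, a folate receptor of the choroid plexus, passed the threshold (4.27, adjusted p = 0.00265). Its part in the member values was not tested.

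At 12 months no member passed against sham in either tissue. In the hippocampus 0 of 7 passed (0% of probes) and none passed the thresholds of the methods in the upward direction (1.48% of probes did), while Steap4 passed them downward. Steap4 was 1.77, 1.51, 1.79 and 2.13 in sham and -0.80 (not well above background), 0.46, 1.70 and 0.65 in TBI arrays. The difference was -1.30 (SE 0.47, adjusted p = 0.282), and 1 TBI array lay within the sham range. Lcn2 (-0.81), Gfap (-0.50) and Emp1 (-0.42) were negative too, and Vim differed by 0.19 although its arrays did not overlap (4.45, 4.51, 4.56 and 4.48 in sham against 4.65, 4.87, 4.62 and 4.62 after TBI). In the cortex 0 of 6 passed (0% of probes). None passed the thresholds of the methods upward (0.135% of probes did), while Lcn2 passed them downward. Lcn2 was 1.68, 0.90, 0.95 and 1.06 in sham and 1.19, 0.71, 0.04 and 0.46 in TBI arrays, a difference of -0.55 (SE 0.25, adjusted p = 0.828). Gfap differed by 0.53 (adjusted p = 0.869), with a 95% interval of -0.48 to 1.53. In the comparisons with no call, the number of members with an unadjusted p under 0.05 (limma) was 2 at 3, 6 and 12 months each in the hippocampus. Among all probes there, 916 of 14944, 642 of 22347 and 3681 of 25364 had such a p. In the cortex the members numbered 6, 6, 3, 3 and 1 from 24 hr to 12 months. The probes were 5384 of 25867, 954 of 23578, 961 of 21997, 2453 of 24856 and 1456 of 25221.

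**Figure D3:**
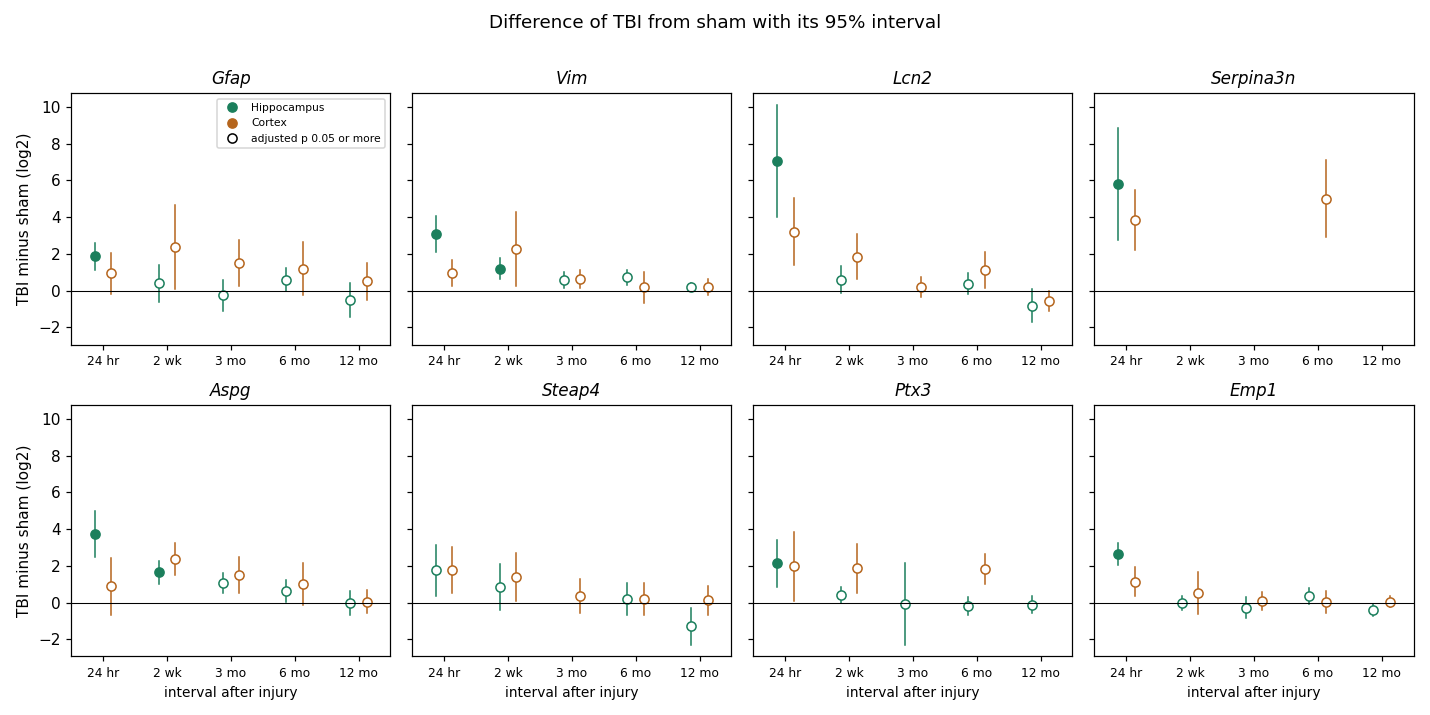
Difference of TBI from sham in log2 units for each member (vertical axis) at each post-injury interval (horizontal axis), in hippocampus and cortex, with bars for the 95% interval of the limma fit and filled symbols for adjusted p under 0.05. Filled symbols occur in the hippocampus at 24 hr and 2 weeks, and the cortical 95% intervals at 24 hr lie above 0 for all members but Gfap and Aspg.

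Of the 9 comparisons of sham with naive rats, the cortex at 24 hr was the one with member calls. No member passed in the hippocampus at 2 weeks (5.85% of probes higher), 3 months (0%), 6 months (3.35%) or 12 months (2.45%), nor in the cortex at 2 weeks (0%), 3 months (0.361%), 6 months (0%) or 12 months (4.07%), with at most 2 members at an unadjusted p under 0.05 in any of them (limma). Probes at that unadjusted p ran from 11 of 22581 in the cortex at 2 weeks to 6103 of 23778 in the hippocampus at 2 weeks. Emp1 in the cortex at 12 months came nearest, at 1.77, 1.73, 2.31 and 2.32 in sham against 2.48, 2.66, 2.49 and 2.47 in naive arrays (-0.49, SE 0.14, adjusted p = 0.0714). It passed at the 75th percentile (-0.53, adjusted p = 0.0497), with no filter (0.0445) and without sham replicate 3 (0.0444). Against naive, TBI arrays showed no member call in the hippocampus at 3 months (0% of probes) and 12 months (1.14%) or in the cortex at 3 months (0.488%), 6 months (0.136%) and 12 months (3.41%). The number of members at an unadjusted p under 0.05 (limma) was 2, 0, 1, 4 and 2 in these comparisons. Among all probes it was 495 of 16138, 5165 of 23382, 2404 of 22135, 2937 of 24940 and 5347 of 23160. Gfap in the cortex differed from naive by 1.89 at 3 months (SE 0.58, adjusted p = 0.193) and by 2.15 at 6 months (SE 0.67, adjusted p = 0.232).

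Over the groups of the larger array design, the group mean of all 8 members in the cortex was highest in TBI at 24 hr. For Gfap the cortical TBI mean was 8.25 ± 0.55 at 24 hr (SD, n = 4, as for all means here), then 6.91 ± 0.45, 6.72 ± 1.34 and 6.55 ± 1.59 at the next 3 intervals, and 5.59 ± 0.34 after 12 months, and the means from 2 weeks to 6 months lay within each other's spread. The sham mean of Gfap at 24 hr, 7.31 ± 0.75, stood between the first and the second of these. For Lcn2 the order was 8.47 ± 0.80 in TBI and 5.27 ± 2.19 in sham at 24 hr, then 3.34 ± 1.07 in TBI at 2 weeks and 2.41 ± 1.20 in TBI at 6 months, with every other cortical group between 0.60 and 1.62. Serpina3n followed with 7.08 ± 0.34 in TBI and 3.26 ± 1.97 in sham at 24 hr, 2.23 ± 2.55 in TBI at 6 months and 0.47 ± 1.52 in TBI at 2 weeks, the last pair within its spread. In the hippocampus at 2 weeks, 6 and 12 months the Gfap means ran from 5.89 ± 0.34 in naive at 6 months to 7.26 ± 0.66 in TBI at 6 months, and those of Vim from 4.10 ± 0.23 in naive at 6 months to 5.91 ± 0.56 in TBI at 2 weeks.

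Whether the difference of TBI from sham itself differed between the tissues was tested at each interval. No member passed, against 2.42% of probes at 24 hr, 0.004% at 6 months and 0% at the remaining intervals, while from the first interval to the last 2, 1, 1, 1 and 2 members had an unadjusted p under 0.05 (limma). In the same order 2083 of 13288, 441 of 25458, 357 of 11711, 839 of 25007 and 2814 of 26155 probes had such a p. The tissues were on different array designs at 24 hr and 3 months. At 24 hr the Vim difference was larger in the hippocampus by 2.10 (SE 0.58, 95% interval 0.84 to 3.37, adjusted p = 0.0899). The Lcn2 difference was larger there by 3.86 (95% interval -0.05 to 7.77, adjusted p = 0.325), and the cortical shams, with their raised levels, enter this value. Steap4 differed by -0.01 with an interval of -2.32 to 2.29. The animal numbers show that both tissues came from the same rats at 2 weeks and 6 months, and the fit of hippocampus minus cortex within each rat called 0 members there too.

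Between neighbouring intervals, no member's difference of TBI from sham passed the test of change in the cortex, where none of the probes tested passed in any of the 4 comparisons (0%, 0%, 0% and 0%). Without the sham array that stood apart, also, 0 members passed here, in the difference between tissues at 2 weeks and between sham and naive cortex at 2 weeks. In the hippocampus none passed between 2 weeks and 6 months (2.26% of probes) and 1, Emp1, passed between 6 and 12 months, against 4.77% of probes. The Emp1 difference was 0.36 at 6 months and -0.42 at 12 months, a change of -0.79 (SE 0.17, adjusted p = 0.0262). Emp1 was 1.19, 1.20, 1.21 and 1.05 in sham and 1.34, 1.74, 1.43 and 1.61 in TBI arrays at 6 months, with no overlap, and 1.55, 1.31, 1.71 and 1.43 against 1.18, 1.33, 1.05 and 0.77 at 12 months, with 1 TBI array inside the sham range. Its call was lost under several settings given in the closing section. Vim (-0.53, adjusted p = 0.0628), Lcn2 (-1.20, adjusted p = 0.139) and Steap4 (-1.49, adjusted p = 0.154) also had lower differences at 12 than at 6 months without passing.

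The naive rats gave the levels of the members in uninjured tissue. Tissue, slide and scan day cannot be told apart in these comparisons. The naive hippocampus at 6 months holds replicate 2, whose array median was high. Without it Lcn2 was higher in hippocampus than in cortex at 6 months (0.78, adjusted p = 0.0428, limma). Gfap was higher in hippocampus than in cortex by 1.51 at 2 weeks (SE 0.41, adjusted p = 0.00935, against 5.02% of probes called), by 1.50 at 6 months (16.6% of probes) and by 1.51 at 12 months (adjusted p = 0.0379, 37.4% of probes). The call at 2 weeks was lost without cortical replicate 4, the array with the high median (0.70, adjusted p = 0.258), without hippocampal replicate 1, 2 or 3 (0.0634 to 0.0992), and under the other scalings, normexp and no filter on dim probes (0.0778 to 0.410). That at 12 months was lost at the 75th percentile, with the authors' table, quantile and no filter (0.0595 to 0.126) and without any of 6 of the 8 arrays (0.0724 to 0.104). Ptx3 was higher in hippocampus by 3.36 at 2 weeks (adjusted p = 4.30e-13), where 2 cortical arrays were well above background, by 2.98 at 6 months, where 1 was, and at least 4.83-fold at 12 months (adjusted p = 5.56e-05). Its naive values at 12 months were 0.96, 1.62, 1.84 and 0.95 in hippocampus and -2.58, -1.52, -2.47 and -3.31, all not well above background, in cortex. Ptx3 was tested only through the hippocampus at each of these intervals. Its adjusted p thus rest on background values in cortex, in part at 2 weeks and 6 months and wholly at 12 months, and are not read as tests. The differences of 3.36 and 2.98 rest in part on such values too. Vim was lower in hippocampus, with a difference of -1.98 at 6 months and -0.87 at 12 months (adjusted p = 0.000465). Emp1 was lower too, at -1.29 and -1.21 (adjusted p = 0.000142). Aspg was higher in hippocampus at 12 months by 0.72 (adjusted p = 0.0228). That call was lost with no filter (0.0933) and without cortical replicate 3 or 4 or hippocampal replicate 2 or 3 (0.0531 to 0.0623). With the rat as a block, which the same animal numbers in both tissues allow, Lcn2 (0.79, adjusted p = 0.0273) and Steap4 (0.40, adjusted p = 0.0350) were higher in hippocampus at 12 months as well. At 6 months limma pooled the variance of all probes fully, so that every difference had an SE of 0.29. At 2 weeks the SE came largely from the other probes too. Gfap had an SE of 0.41 there, although its arrays had an SD of 1.66 in cortex and 0.81 in hippocampus. The adjusted p at these intervals thus do not measure the spread of each gene between rats. From 2 weeks to 12 months in naive rats, Aspg rose in the hippocampus by 1.1 (SE 0.23, adjusted p = 0.0357), against 5.45% of probes, from 0.30, 0.70, -0.40 and 0.65 to 1.38, 1.50, 1.61 and 1.18, and these groups did not overlap. In the cortex no member passed (0.543% of probes), and 1 had an unadjusted p under 0.05 (limma), as did 2311 of 23377 probes.

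Across arrays the members kept company to different degrees. Pearson's r was computed over the 96 arrays of the larger design after the mean of each tissue and interval was subtracted. It is a description, since the arrays share slides and groups. The highest values without the array that stood apart (95 arrays) were 0.81 for Vim with Aspg, 0.78 for Lcn2 with Serpina3n, 0.72 for Lcn2 with Aspg and 0.70 for Lcn2 with Ptx3, and the lowest were 0.25 for Serpina3n with Steap4 and 0.27 for Gfap with Emp1. With all 96 arrays r was 0.69 for Vim with Aspg and 0.78 for Lcn2 with Serpina3n. Correlations of the members with the percentage of probes above background ran from -0.056 to 0.139 over the 95 arrays.

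**Figure D4:**
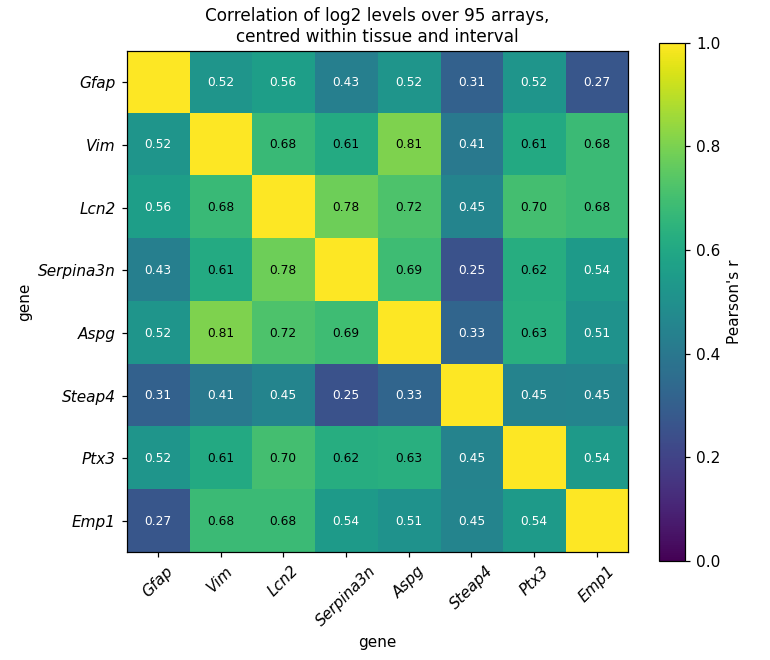
Pearson's r between each pair of members over 95 arrays of the larger design, with levels centred within tissue and interval and the array that stood apart left out. The colour runs from violet (0) to yellow (1) and each cell prints its r, with Vim and Aspg highest at 0.81 and Serpina3n and Steap4 lowest at 0.25.

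Among 10941 named genes well above background in at least 50% of these arrays, the 3 genes most like each member over the 96 arrays were, for Gfap, S100a4 (0.778), Cd44 (0.777) and S100a3 (0.736). For Vim they were Emp3 (0.947), Anxa1 (0.947) and Anxa2 (0.911), the last pair being annexins. For Lcn2 they were Plp2 (0.841), Tubb6 (0.833) and Cd14 (0.818), the last a coreceptor for lipopolysaccharide. Serpina3n was nearest to Lcn2 (0.78), Timp1 (0.753) and Pla1a (0.739), and Aspg to the complement protease gene C1s (0.826), Gpnmb (0.81) and Plp2 (0.804). Steap4 had the weakest partners, Tlr2 (0.561), Lyz2 (0.556) and Slc16a3 (0.553). Ptx3 was nearest to Cdk1 (0.731), Spp1 (0.721) and Hmox1 (0.718), and Emp1 to Tagln2 (0.841), Ecscr (0.84) and S100a11 (0.832). Without the array that stood apart the nearest gene was another one for 4 members, Cd44 for Gfap (0.73), Anxa1 for Vim (0.924), Lyz2 for Steap4 (0.61) and Cd44 for Ptx3 (0.759). For Lcn2 (Plp2, 0.851), Serpina3n (Lcn2, 0.78), Aspg (C1s, 0.846) and Emp1 (Tagln2, 0.852) it was the same gene.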

How the data were processed

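RNA of rat hippocampus and cortex was hybridized by the authors to Agilent arrays with 1 dye, and the deposited scanner files hold a processed signal intensity per spot from Feature Extraction 11.5.1.1, already background-subtracted by that software. Spot flags for well above background, saturation and outliers are in the same deposited files, and 0.736% of spots with an outlier flag were left out. No probe was saturated. The authors' deposited table of intensity values holds the processed signal scaled by a single factor on each array, and was used as an alternative. Its scale lay at a median percentile of 74.9 of the array, although the methods name the median, and within 0.05 log2 units for a median of 99.9% of probes (84.1% to 100%). GeneSpring was used by the study, per its methods, and its results were not used here.

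Spots of a probe were averaged, and each array's median over all probes other than controls was subtracted after log2, as the methods state. The number of arrays limits the precision. Probes were named through RefSeq identifiers (46.3% of the larger design and 61.4% of the smaller). Each member was read from 1 probe, on both designs where possible and otherwise the brightest of each design, which for Emp1 is a different probe per design. Steap4 and Ptx3 have a second probe on the smaller design only, which was never and in 17.6% of arrays above background.

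A probe was tested where it was well above background on every array of at least 1 group compared. The groups of a tissue and interval entered 1 limma fit (limma 3.58.1, R 4.3.3) with Benjamini-Hochberg adjustment over all probes tested and a threshold of 0.05. The methods' thresholds, a fold of 1.4 and an unadjusted p under 0.05, were counted beside it. The fits were tested on simulated data. The alternatives were 75th percentile scaling, quantile normalization, the authors' table, normexp background correction (offset 50), no filter on dim probes, an intensity trend, only the groups compared, another probe, a replicate block, and leaving out each array. Some were added after the data were seen: leaving out the arrays that stood apart in the correlations and in the cortex at 2 weeks, and hippocampus minus cortex within each rat. Arrays lay on 15 slides (2 to 8 each) scanned on 6 days. Members and gene lists were chosen with earlier results of these data known.

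The genes named are the 9 members in every comparison, up to 4 genes per list and tissue with the largest fold among those called in TBI against sham, and the 3 genes most like each member. List genes named between sham and naive, or beyond 4 of a list in a tissue, were chosen after their values were seen. Replicate numbers were checked for pairing by the correlation of same-numbered arrays' deviations from their group means. In the names of the deposited scans, hippocampus and cortex carry the same animal numbers at 2 weeks and 6 months in all groups and at 12 months in naive rats. In naive rats these correlations were 0.126 to 0.303 at 2 weeks, -0.384 to 0.096 at 6 months and 0.312 to 0.461 at 12 months. Naive, sham and TBI groups within a tissue are different rats that share only a number.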

Additional observations from a re-analysis of the deposited data

Results flagged for a closer look

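In groups of 4 arrays, the gap between the highest or lowest array and its neighbour, as a share of the group's range, was larger than Dixon's 95% critical value in 13 of 216 member groups, and chance gives this in about 1 in 20. The 3 groups at 2 weeks in the cortex were Vim in sham (0.92) and Emp1 in sham (0.914), where the far array is sham replicate 3, and Emp1 in naive (0.846), where it is naive replicate 4. Both are arrays that stood apart over all probes. In the hippocampus of naive rats at 3 months, Ptx3 was 7.82 in replicate 1 against 1.48 to 2.37 in the others (0.859). Lcn2 in naive hippocampus at 12 months was 3.30 in replicate 3 against 1.57 to 1.77 (0.885). Gfap in naive hippocampus at 2 weeks was 5.73 in replicate 4 against 7.17 to 7.45 (0.84). Aspg in the cortex at 3 months had a low sham replicate 1 (0.846) and a high TBI replicate 2 (0.838). The other gaps lay within narrow groups: Vim in hippocampus sham at 2 weeks (0.856) and TBI at 12 months (0.87), Steap4 in cortex sham at 6 months (0.941), and Emp1 in cortex naive at 12 months (0.923) and hippocampus sham at 6 months (0.907). The difference of TBI from sham for Emp1 in the hippocampus differed between 6 and 12 months by -0.786 in the test of that difference.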

How the results depend on the processing

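Over these settings, repeats of the called member differences kept the call 470 times and lost it 134 times, and none reversed. In the hippocampus at 24 hr 7 members were called, and no filter gave 0, the replicate block 5 (Lcn2, Ptx3 and Vim lost, Steap4 gained) and leaving out 1 array 3 to 7 (3 without sham replicate 1). At 2 weeks 2 were called there, and no filter, the block and only the groups compared gave 0 each. Leaving out 1 array gave 0 to 2, with 0 without sham replicate 2, 3 or 4 or TBI replicate 3 or 4, 1 without sham or TBI replicate 1. In the cortex at 24 hr the count of 0 became 5 with normexp, 3 with no filter and 1 with the intensity trend, and 0 to 2 without 1 array (2 without TBI replicate 3). In the cortex at 2 weeks 0 became 2 with no filter, 1 each with normexp, quantile and trend, and 0 to 3 without 1 array (3 without sham replicate 3). In the cortex at 6 months 0 became 0 to 1 (1 without TBI replicate 1). The other comparisons of TBI with sham stayed at 0 to 0. Sham against naive went from 5 to 3 at the 75th percentile and with no filter (2 in the cortex at 24 hr and Emp1 in the cortex at 12 months), 2 with quantile and the authors' table, 4 with the block, and 2 to 6 without 1 array. TBI against naive went from 12 to 10 to 13 without 1 array, 11 with the block, 9 with no filter and 18 with only the groups compared, which added 6 calls and lost 0, and differences between tissues stayed at 0 to 0. Differences between intervals went from 1 to 0 at the 75th percentile, with the authors' table, normexp and no filter, to 2 with the trend and the block, and to 0 to 2 without 1 array (2 without hippocampus sham replicate 2 or TBI replicate 1 at 6 months or TBI replicate 3 at 12 months, 0 without sham replicate 4 or TBI replicate 2, 3 or 4 at 6 months or sham replicate 4 at 12 months). Naive tissues went from 11 to 13 with the block, which adds Lcn2 (0.79, adjusted p = 0.0273, limma) and Steap4 (0.40, adjusted p = 0.0350) at 12 months, and to 9 to 12 without 1 array. Naive age went from 1 to 0 with quantile, the authors' table, normexp, no filter and the block, and to 0 to 1 without 1 array (0 without replicate 1, 3 or 4 at 2 weeks or 2, 3 or 4 at 12 months). The causes were not tested. Dim probes, Serpina3n and Ptx3 above all, were well above background in 32.3% and 59.4% of arrays of the larger design, which limits their tests.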
